A study of Schizosaccharomyces pombe with 20 samples.

Results

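The exon-skipping junction probes of a fission yeast (Schizosaccharomyces pombe) splicing microarray were examined over all arrays of the series. Each such probe is built across the join of a pair of exons of 1 gene that are not neighbours, so that it would be matched by a transcript from which the exons in between are missing. The probes were chosen by their name in the deposited table, which ends in the word junction in lower case, whereas probes for neighbouring exons carry it with a capital. This gave 405 of 15208 probes that are not control spots. Of these, 402 join non-consecutive exons, in 275 genes, and 3 mitochondrial probes join consecutive exons and are described on their own at the end. Below, a probe is named by its gene and the exons it joins, so that cwf10 1-3 joins exons 1 and 3 of cwf10 and leaves exon 2 out.

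Introns are removed by the spliceosome, which pairs the 5′ splice site at one end of an intron with the branch point and 3′ splice site at its other end. If a 5′ splice site is paired with the 3′ splice site of a later intron, the exon in between leaves with the introns, and the mRNA carries a join between exons that are not neighbours. Genes of fission yeast often have several short introns, and skipped exons are a minor product beside the consecutive joins of the main mRNA. A transcript that has skipped an exon may carry a premature stop codon and then be degraded by nonsense-mediated decay.

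The series compared 12 deletion strains with wild type, to ask how loss of each gene affects splicing over the genome. On each of 20 two-colour arrays the RNA of a strain, labelled with Cy3, was set against wild-type RNA of strain ED666, labelled with Cy5, and every value is the deposited log2 ratio of strain over wild type. There were 2 arrays for each of 8 strains and 1 array for each of 4 strains, and the labels call replicates separately grown cultures. Wild type was the partner on every array, and whether 1 wild-type RNA served for all of them was not tested. If it did, a test of a ratio against 0 leaves out the spread of wild type. The dyes were never exchanged, so dye and strain cannot be told apart. A changed ratio may come from all cells of a culture or from a few, and these cannot be told apart either.

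Every strain carried a KanR cassette in place of 1 gene, from the Bioneer collection. The strains with 2 arrays lacked aar2 (SPAC3H5.04), a U5 snRNP factor; ctr1 (SPAC140.04); ppn1 (SPCC74.02c) and ssu72 (SPAC3G9.04), which act in 3′ end processing; pwi1 (SPCC825.05c), a splicing coactivator; smd3 (SPBC19C2.14), a core Sm protein of the snRNPs; SPAC18G6.13; or SPAC20H4.06c. The strains with 1 array lacked ash2 (SPBC13G1.08c) or swd1 (SPAC23H3.05c), both of the Set1 histone methyltransferase complex, pht1 (SPBC11B10.10c), the histone variant H2A.Z, or SPCC162.01c. All strains were grown in YES medium.

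Some arrays did not behave as their labels state. The exon probe of the deleted gene was lowered by 1.19 or more on 14 of 20 arrays. It read -0.50 and -0.93 on the arrays labelled smd3 (-1.01 to 0.07 on the other arrays), -0.41 and -0.26 on those labelled SPAC18G6.13 (-0.83 to 1.22 on the others) and 0.59 on that labelled SPCC162.01c (-0.46 to 0.45). It read -0.86 on ctr1 replicate 2, within the range of the arrays of other strains (-1.05 to 0.63), and -4.71 on ctr1 replicate 1. These 4 strains are called below by their labels. A further pair of arrays was singled out after the values were seen. The exon probe of mat3-Mc, a mating-type gene, read -0.40 on pwi1 replicate 1 and 0.07 on smd3 replicate 1, and -7.43 to -2.84 on the other arrays with a value. That of ura4, a uracil synthesis gene used as a marker, read -0.45 on pwi1 replicate 1, had no value on smd3 replicate 1, and read -7.07 to -4.36 elsewhere. On pwi1 replicate 1 the strain and its wild-type partner thus had like levels of both genes, and on smd3 replicate 1 like levels of mat3-Mc. On the other arrays with a value both genes read far lower in the strain than in its partner. Strain and partner thus differed there in genes besides the deleted one, and the part of this in other ratios was not tested.

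The skipping probes gave a value less often than the probes for neighbouring exons. Between 28.9% of them (116 of 402, smd3 replicate 1) and 97.8% (393, SPCC162.01c) had a value on an array, against 80.6% to 97.7% of the 4694 consecutive junctions. A value was present on all 20 arrays for 63 skipping probes, on 10 or more for 308, on fewer than 10 for 94 and on none for 5. How the authors decided which values to leave empty is not given in the sources used. Which skipping probes can be compared between strains therefore differs from strain to strain.

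The middle of the skipping probes lay below that of the consecutive junctions of the same genes on most arrays. The median skipping ratio was below 0 on 15 of 20 arrays, with the lowest medians on ctr1 replicate 1 (-0.75) and smd3 replicate 1 (-0.58). It was above 0 on ash2 (0.10), pht1 (0.17), SPCC162.01c (0.09), swd1 (0.10) and ppn1 replicate 1 (0.05), which are the 4 strains with 1 array and 1 further array. All 8 replicate 2 arrays had a median below 0. The median over all consecutive junctions of the array was below 0 on all 20 arrays.

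Taken as skipping median minus the median of the consecutive junctions of the same genes, the strain values ran from -0.43 ± 0.40 (SD, n = 2) on the arrays labelled ctr1 to 0.24 (n = 1) in Δpht1. Among the other strains with 2 arrays the difference was -0.28 ± 0.05 on the arrays labelled SPAC18G6.13, -0.24 ± 0.18 on those labelled smd3, -0.21 ± 0.06 in ΔSPAC20H4.06c, -0.18 ± 0.15 in Δaar2, -0.18 ± 0.09 in Δssu72, -0.10 ± 0.02 in Δpwi1 and -0.09 ± 0.34 in Δppn1 (SD, n = 2 each). The single arrays of Δash2, of Δswd1 and of that labelled SPCC162.01c gave 0.13, 0.20 and 0.13. The arrays labelled ctr1 and those of Δppn1 stood far apart within the strain, at -0.71 and -0.15 for ctr1 and at 0.15 and -0.33 in Δppn1. These are medians of a list and carry no test.

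**Figure D1:**
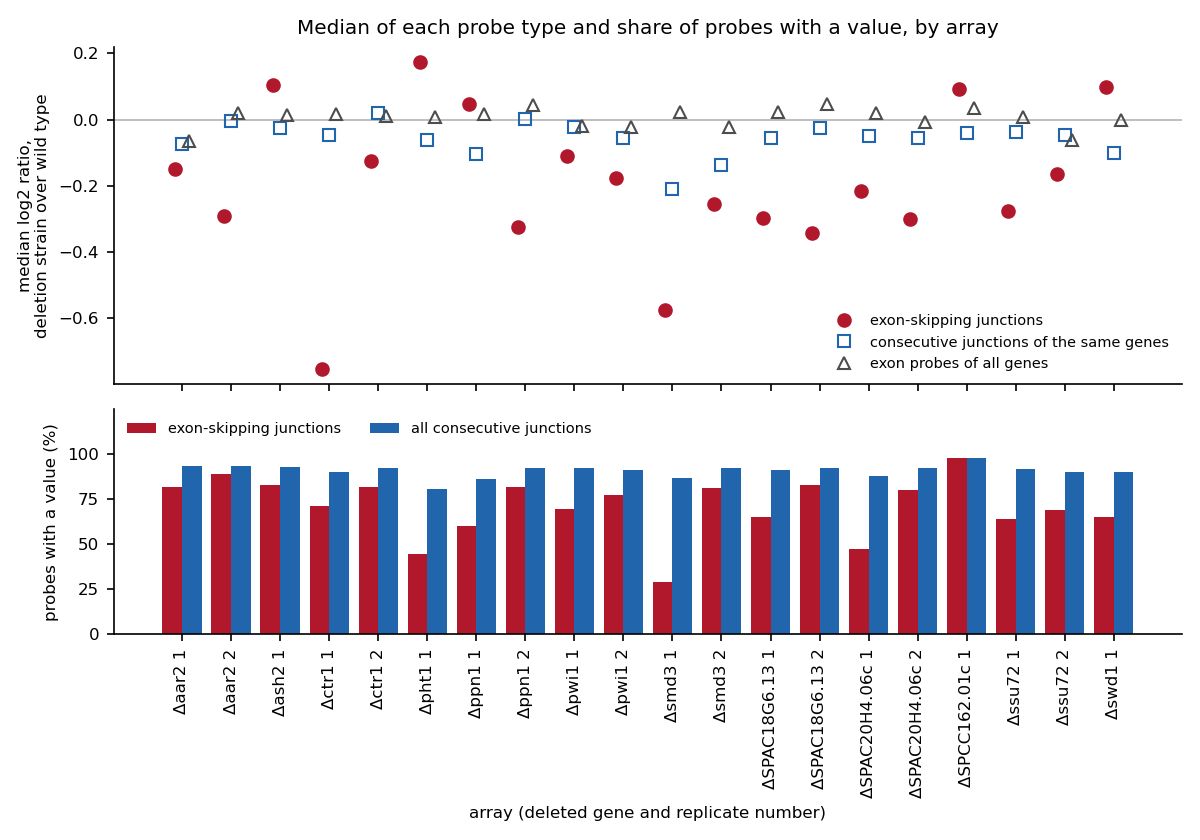
Median log2 ratio (strain over wild type) on each of the 20 arrays, for the exon-skipping junctions and for the consecutive junctions of the same genes. The skipping median lies below 0 on 15 arrays, and it is lowest on ctr1 replicate 1 (-0.75) and smd3 replicate 1 (-0.58).

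Medians below 0 were found for short and for long skips. The median over arrays of the array medians was -0.22 for the 250 probes that leave 1 exon out, -0.21 for the 95 that leave out 2, -0.12 for the 32 that leave out 3 and -0.14 for the 25 that leave out 4 or more, up to 7. In each class 14 or 15 of the 20 array medians were below 0. The 190 probes that start at exon 1 and the 212 that start later also differed little, with -0.21 and -0.19. These classes share arrays and genes, and no difference among them was tested.

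Single skipping probes stayed close to 0 in most cases. Of the 308 with a value on 10 or more arrays, 260 had a median within 0.5 of 0, 35 had a median of -0.5 or less and 13 of 0.5 or more. Below 0 on every array with a value were 18 probes, among them wtf23 4-6 on all 20 arrays (-1.12 to -0.18). The wtf genes, which drive meiotic transmission, are a family of near copies, so a probe of one may bind others and its gene is uncertain. Also below 0 on all of its 17 arrays was qcr8 1-3 (-1.82 to -0.38, median -0.79), from a gene for a subunit of respiratory complex III. The exon probe of qcr8 was below 0 as well on 18 of 20 arrays (-1.29 to 0.24).

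A few skipping probes were far above 0 on most arrays, and 3 of them were below 0 on the same 3 arrays. The largest medians, picked out after the values were seen, belonged to rpf2 1-3 (1.96, 14 arrays), tsn1 3-5 (1.69, 19 arrays), qns1 1-5 (1.49, 11 arrays) and dph5 2-4 (1.37, 17 arrays). Of these genes, rpf2 acts in ribosome assembly, tsn1 encodes translin, qns1 NAD synthase and dph5 an enzyme of diphthamide synthesis. The skipping probe of tsn1 read 0.65 to 3.51 on 16 arrays, but -0.47 on pwi1 replicate 1, -0.65 on smd3 replicate 1 and -0.14 on SPCC162.01c. On those 3 arrays rpf2 1-3 read -0.90, -1.02 and -0.63, and 0.44 to 3.88 on its other 11. There dph5 2-4 read -0.28, -0.04 and -0.23, and 0.43 to 2.73 elsewhere. The probe qns1 1-5 had no value on pwi1 replicate 1 and smd3 replicate 1 and read 0.20 on SPCC162.01c.

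Pwi1 replicate 1 and smd3 replicate 1 are also the arrays on which the mat3-Mc exon probe lay near 0. Not every high probe followed this pattern. On these 2 arrays cwf10 1-3 read 0.81 and 1.31, and mug62 4-6 read 0.60 and 0.23. The part of this difference between arrays in the skipping values was not tested. The high skipping values were not shared by the rest of the gene, since the consecutive junctions inside the span of tsn1 3-5 read -0.49 to 0.39 on the arrays on which that probe was above 0. For rpf2 1-3 they read -1.02 to -0.45 on the 11 arrays with a high skipping value, that is, below 0 where the skipping probe was above it.

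Skipping probes followed their own gene, but less closely than the consecutive junctions did. Where the mean of the consecutive junctions in a skip's span was below -1 (113 values of 61 probes), the median skipping value was -0.57. A consecutive junction whose gene's other junctions averaged below -1 had a median of -1.01. Between -0.5 and 0 the medians were -0.27 for skipping probes and -0.17 for consecutive junctions, and between 0 and 0.5 they were -0.07 and 0.12. Above 1 (32 values of 26 probes) they were 0.61 and 1.11. At both ends of the range the skipping value thus lay nearer to 0 than that of a consecutive junction did.

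Within single arrays, the correlation across probes between a skipping value and the consecutive junctions in its span was 0.07 to 0.48 (median 0.30 over 20 arrays). For a consecutive junction and the other junctions of its gene it was 0.34 to 0.87 (median 0.74), and for a skipping probe and the exon probe of its gene 0.00 to 0.42 (median 0.21). These correlations are across probes of 1 array, which share hybridisation and often a gene, and are given as a description.

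**Figure D2:**
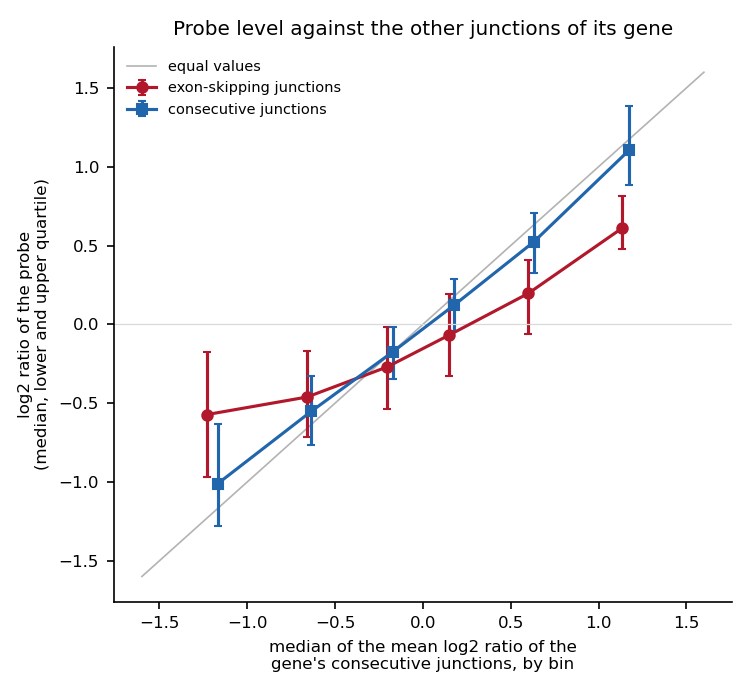
Log2 ratio of a junction against the mean log2 ratio of the consecutive junctions of its own gene, in bins, for skipping probes and for consecutive junctions over all 20 arrays. The skipping medians run from -0.57 to 0.61 and those of the consecutive junctions from -1.01 to 1.11.

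Calls against wild type were made with limma, with p-values adjusted over all probes of the array that had a value on every array of the strain, and they were few. On the arrays labelled smd3, 115 skipping probes could be tested, of which 2 were higher (1.74%) and 12 lower (10.4%). Over all 11027 probes tested in that strain, 10.8% were higher and 8.37% lower. Among probes of the genes that have a skipping probe, 15.6% of 976 consecutive junctions were lower and 37.9% of 501 intron probes were higher. In this fit the share of skipping probes called lower was thus near that of all probes, and that called higher was below it. With the replicate number as a further term, 28.7% of the 115 were lower, against 13.1% of all probes. In that fit 5.22% were higher, against 13.9%.

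The highest call was cwf10 1-3, from the gene of the spliceosomal GTPase of the U5 snRNP. It read 1.31 and 1.75 on the arrays labelled smd3 (mean 1.53, SE 0.37, limma adjusted p = 0.0144), beside consecutive junctions in its span at 0.36 and 0.38. The other call in that direction was rdh54 8-12, of a recombination helicase gene, with 0.65 and 0.29 (mean 0.47, SE 0.15, limma adjusted p = 0.0461), beside span junctions at -1.06 and -0.06. On the other arrays rdh54 8-12 read -0.78 to 0.14, all below both arrays labelled smd3. For cwf10 1-3 the other arrays ran from -0.63 to 2.58 and overlapped those labelled smd3.

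Lower on the arrays labelled smd3 were SPAC644.09 1-4 (-1.77 and -1.09, mean -1.43), tbp1 1-3 (-0.92 and -1.10, mean -1.01, SE 0.22, limma adjusted p = 0.00911), alp41 2-4 (-0.78 and -1.11, mean -0.94) and pud1 3-6 (-1.09 and -0.72, mean -0.90). Here tbp1 encodes the TATA-binding protein and alp41 a small GTPase of tubulin folding. The consecutive junctions in the same spans were low too, at -1.09 and -1.37 for SPAC644.09, -0.74 and -1.24 for tbp1, -1.36 and -0.38 for alp41 and -0.61 and -0.43 for pud1. On the other arrays tbp1 1-3 read -0.78 to 0.48 and pud1 3-6 read -0.48 to 0.61, so neither overlapped the arrays labelled smd3. For SPAC644.09 1-4 (-1.82 to 0.14) and alp41 2-4 (-1.81 to 0.36) the ctr1 replicate 1 array was lower still.

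The remaining lower calls on the arrays labelled smd3 had means of -0.80 to -0.63 and lay in SPCC737.07c, qcr8, pud1 (3-5), mms2 (2-5), icp55, srp1, tan1 and rsd1. In srp1 and rsd1, which encode an SR protein and an SR-like protein, the skipping probe was low and the consecutive joins were not. For srp1 1-3 the values were -0.78 and -0.52 (mean -0.65, SE 0.14, limma adjusted p = 0.00756) with span junctions at 0.29 and -0.07, and for rsd1 3-5 they were -0.94 and -0.32 with span junctions at 0.01 and 0.64. Most of these calls were lost when 1 array was left out. None of the 14 probes above was called without smd3 replicate 1, and only 4 of them were without smd3 replicate 2. Which probes are tested also changes, since 116 skipping probes had a value on smd3 replicate 1 and 326 on replicate 2. Without pwi1 replicate 1 and smd3 replicate 1 together, again none of the 14 was called.

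**Figure D3:**
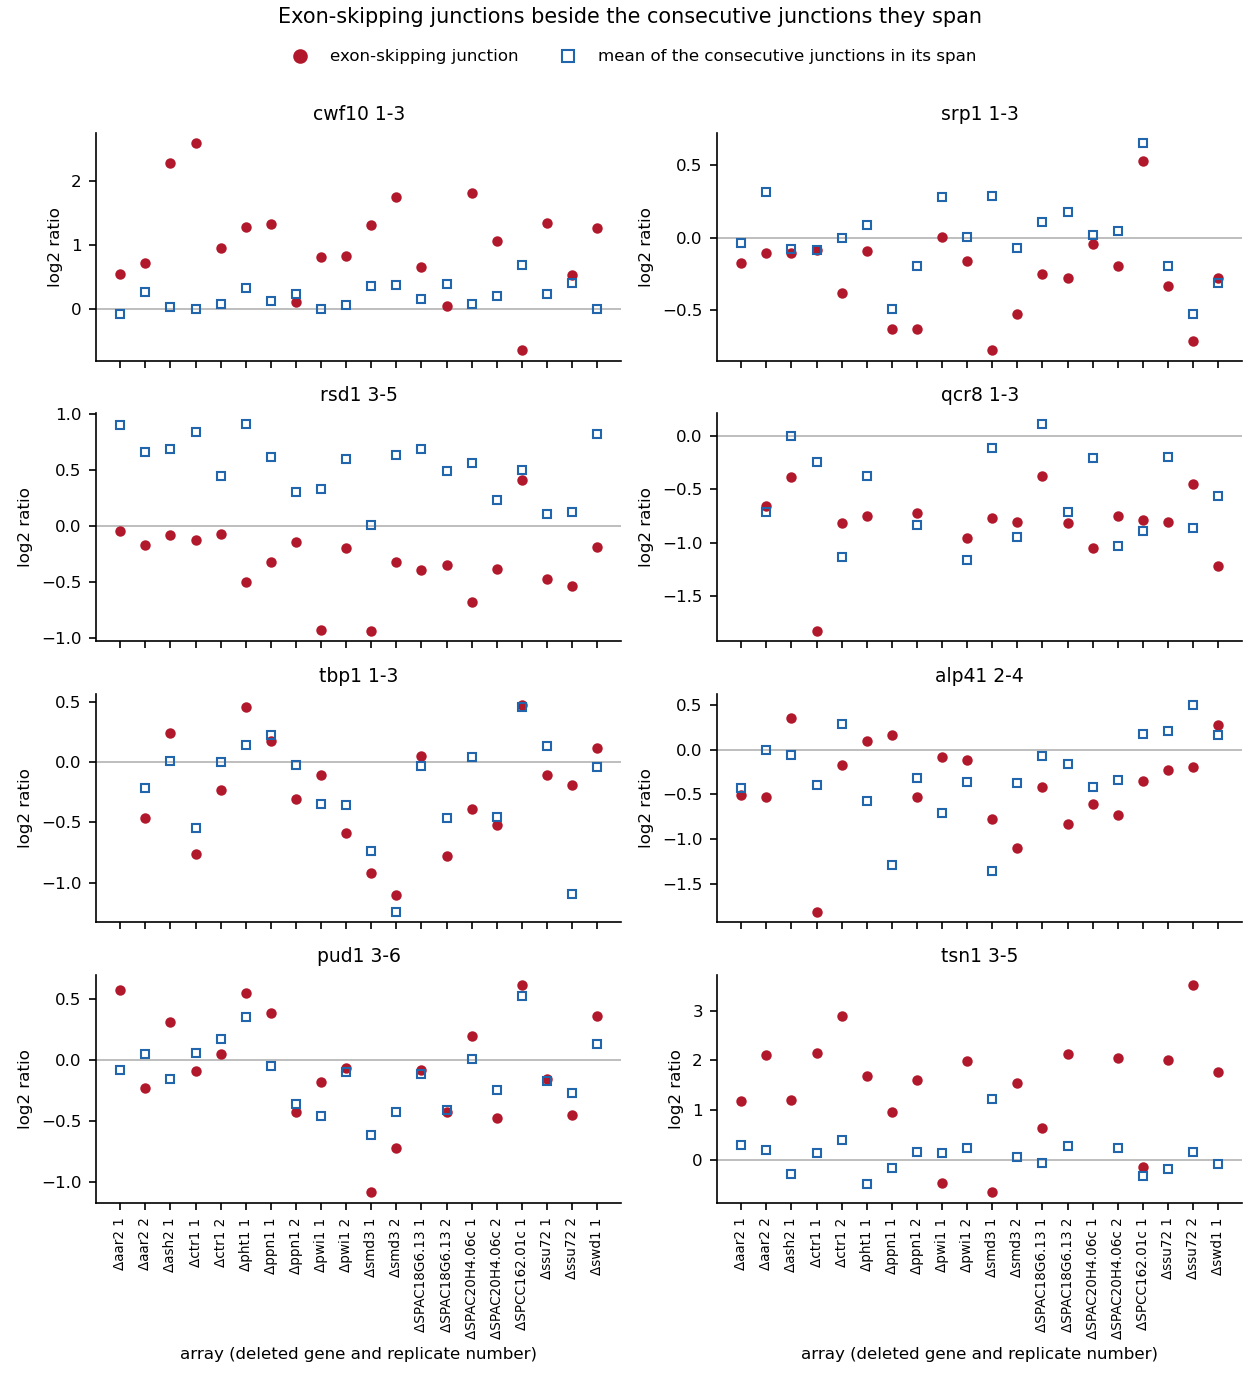
Log2 ratio (strain over wild type) on each array for 8 skipping probes (filled dots) and for the mean of the consecutive junctions inside the span of each (open squares). The skipping probe of cwf10 lies above 0 on 19 arrays and its consecutive junctions between -0.07 and 0.69, whereas tbp1 1-3 and its consecutive junctions are low together on the arrays labelled smd3.

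On the arrays labelled ctr1, 254 skipping probes were tested and 1 was higher (0.394%) and 13 lower (5.12%), against 1.97% and 1.5% of all 11032 probes tested. Among the consecutive junctions of the same genes 0.498% of 1005 were lower. The lower calls had means of -1.65 to -0.72, with the largest for csn1 1-3 (-2.18 and -1.12, SE 0.37, limma adjusted p = 0.0434), qcr8 1-3 (-1.82 and -0.82, mean -1.32), pkp1 2-4 (-1.91 and -0.69, mean -1.30) and bbl1 1-3 and csn3 5-7 (both mean -1.26). Csn1 and csn3 are subunits of the COP9 signalosome. The consecutive junctions read -0.14 and 0.17 within csn1 1-3, 0.06 and 0.32 within pkp1 2-4 and -0.23 and -0.27 within csn3 5-7, as means over the span. For these 3 probes the skipping value was low where the mean of the consecutive joins lay within 0.32 of 0, whereas within qcr8 1-3 that mean was -0.24 and -1.14.

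The 1 higher call on the arrays labelled ctr1 was again cwf10 1-3, with 2.58 and 0.96 (mean 1.77, SE 0.37, limma adjusted p = 0.0411) and span junctions at 0.01 and 0.09. The other lower calls lay in plh1 (4-7), SPBC3E7.07c (1-3), gem1 (7-13), SPAC824.09c (2-5), sum2 (1-3), naa10 (3-5), srp2 (5-7) and wtf21 (4-6), of which wtf21 is one of the near-identical wtf genes and is uncertain. These calls came from replicate 1, the array on which the ctr1 exon probe was low. On that array the skipping values were spread more widely than on any other (SD 0.999 over 285 probes, 0.26 to 0.64 elsewhere). Consecutive junctions (SD 0.63), exon probes (0.63) and intron probes (1.015) were also spread most widely on that array. Without ctr1 replicate 1 no skipping probe was called.

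In Δpht1, with 1 array, 178 skipping probes were tested and 1 was lower, against 2.42% of all 9168 probes. It was SPCC1672.09 2-4, at -1.32 (SE 0.28, limma adjusted p = 0.0361, both from the spread within other strains, assumed to hold for Δpht1), and its whole gene was low on that array, with consecutive junctions in the span at -2.01 on average and the exon probe at -1.39. On the other arrays SPCC1672.09 2-4 read -0.30 to 0.46. In Δppn1, 224 were tested and 1 was lower, against 1.5% of all 10301 probes. It was srp1 1-3, at -0.63 on both arrays (SE 0.14, limma adjusted p = 0.0349), beside span junctions at -0.49 and -0.19, and the call was lost when either array was left out.

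With 1 mean per strain and no further term, limma called no skipping probe in the other 8 strains. This fit leaves the replicate number, with which skipping values went across strains, in the spread. With the replicate number as a block, skipping probes were called in each of these strains but Δash2, as given at the end. Of all probes it called 0.0552% higher and 0.0473% lower in Δaar2, 0.0416% and 0.025% in Δash2, 0.809% and 0.261% in Δpwi1, and 0.259% and 0.0598% in ΔSPAC20H4.06c. On the arrays labelled SPAC18G6.13 it called 2.49% of all probes higher and 1.75% lower, on that labelled SPCC162.01c 0.0337% and 0.0135%, in Δssu72 0.158% and 0.167% and in Δswd1 0.148% and 0.138%. At an unadjusted p under 0.05 there were 41 of 306 skipping probes in Δaar2 (13.4%, against 23.7% of all probes), 13 of 332 in Δash2 (3.92%, against 9.89%) and 18 of 250 in Δpwi1 (7.2%, against 15.2%). There were 35 of 393 on the array labelled SPCC162.01c (8.91%, against 12.2%), 30 of 219 in Δssu72 (13.7%, against 17.1%) and 18 of 261 in Δswd1 (6.9%, against 16.8%). On the arrays labelled SPAC18G6.13 there were 54 of 245 (22%, against 21.6%) and in ΔSPAC20H4.06c 47 of 184 (25.5%, against 16.1%). The shares of skipping probes and of all probes were not tested against each other. A strain with 1 array borrows its spread from the others, which limits what can be called there.

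The skipping value was next taken relative to the consecutive junctions inside its span on the same array. This would take off a change of the whole transcript only for a probe that follows its gene in full. Skipping probes followed it in part, as shown above, so a rise of the span junctions by itself can lower this value and a fall can raise it. On the arrays labelled smd3, 7 of 112 skipping probes were lower by this measure (6.25%) and none higher, against 3.82% lower and 3.3% higher of all 3118 junctions of both kinds tested in the same way. The largest was rsd1 3-5 (mean -0.95, SE 0.18, limma adjusted p = 0.0106). In vma2, the gene of a subunit of the vacuolar proton pump, 3 probes that share exon 1 were low, with -0.77 for 1-4, -0.72 for 1-3 and -0.55 for 1-5. These 3 probes share the exon 1 end and their span junctions, so they are not separate observations. The others were srp1 1-3 (-0.76), rpb1 1-4 (-0.60), of the largest subunit of RNA polymerase II, and chc1 1-3 (-0.50), of the clathrin heavy chain.

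In the vma2 gene the skipping probes of the arrays labelled smd3 were near or below 0 while the consecutive joins were above it. For vma2 1-4 the skipping values were -0.68 and -0.16 and the span junctions 0.15 and 0.55. For rpb1 1-4 the 2 arrays went apart, with -0.83 and 0.25 beside span junctions at 0.06 and 0.57. Without smd3 replicate 1 none of the 7 was called and without smd3 replicate 2 only 2 were.

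In Δpwi1, 2 of 239 skipping probes were higher relative to their span and 1 was lower, against 0.728% and 0.757% of all 3436 junctions. They were pwi1 1-4 itself, for which the deletion lowers the junctions it is set against so that the call is no separate result, SPAC8E11.04c 3-5 (mean 0.47, limma adjusted p = 0.0372) and rsd1 3-5 (mean -1.03, SE 0.18, limma adjusted p = 0.023). None of the 3 was called when either Δpwi1 array was left out. In Δpht1 1 of 170 was lower, rsd1 3-5 (-1.41, SE 0.25, limma adjusted p = 0.0369, with the spread of the other strains), against 0.644% of all 2952 junctions, and it was lost without pwi1 replicate 1 and smd3 replicate 1 (adjusted p = 0.089). In the other 9 strains limma called none, again without a term for the replicate number. At an unadjusted p under 0.05 there were between 13 of 319 (4.08%, Δash2, against 3.49% of all junctions) and 88 of 241 (36.5%, arrays labelled ctr1, against 27%). There limma called, higher and lower, 0.168% and 0.0279% of all junctions in Δaar2, 0.031% and 0% in Δppn1, 0.0867% and 0.0578% on the arrays labelled SPAC18G6.13 and 0.115% and 0.26% in Δswd1, and no junction of either kind in the remaining 5 strains.

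The rsd1 probe is an example of a skipping value that is set apart from its gene in almost every strain. Rsd1 3-5 was below 0 on 19 arrays (-0.94 to -0.05) and 0.41 on SPCC162.01c. The junctions within its span were above 0 on all 20 arrays (0.01 to 0.91), as was the exon probe (0.08 to 1.21). In no strain other than that labelled SPCC162.01c did the skipping values reach above 0. The opposite order was seen for cwf10 1-3, which was above 0 on 19 arrays (0.06 to 2.58) and -0.63 on SPCC162.01c, while the span junctions stayed between -0.07 and 0.69. Each array has wild type as partner by its label, so values alike in many strains may come from the partner or from the strains. By the mat3-Mc and ura4 values above, strain and partner did not differ in the same way on all arrays. Whether 1 wild type was used throughout was not tested.

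Pwi1 is the only one of the deleted genes with skipping probes, and they did not follow the loss of its mRNA. In the Δpwi1 strain the exon probe of pwi1 read -2.81 on replicate 1 and -4.04 on replicate 2, and its 3 consecutive junctions read -2.21 to -1.86 and -3.05 to -2.26. The probe pwi1 1-4 read 0.04 and -0.44 in the same strain, and pwi1 1-3 read -0.05 on replicate 1 and had no value on replicate 2. On the arrays of the other strains pwi1 1-4 read -0.60 to 0.51 and pwi1 1-3 read -0.88 to 0.29. Both groups of arrays thus overlapped in the skipping probes and did not in the exon probe, which was at -1.38 or above in the other strains.

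Relative to the consecutive junctions in its span, pwi1 1-4 was 2.09 and 2.28 higher in Δpwi1. Since the deletion removes those junctions, a probe that reads near 0 must come out higher by this measure, and the value is given as a description. In Δppn1, where the pwi1 exon probe read -1.38 and -1.26, the span junctions of pwi1 1-4 averaged -1.66 and -1.24 and the skipping probe read 0.35 and -0.60. What part of the signal of these probes comes from pwi1 transcripts was not tested.

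**Figure D4:**
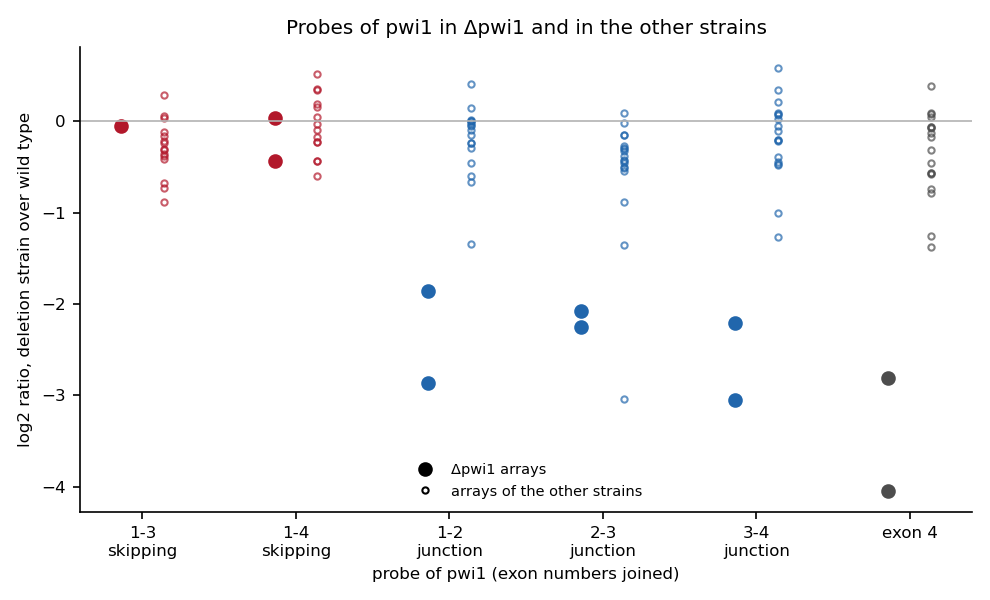
Strain over wild type, as log2 ratio, for each probe of pwi1 (exon probe, consecutive junctions and skipping junctions), with the Δpwi1 arrays as filled points and the arrays of the other strains as open points. In Δpwi1 the exon and consecutive junction probes lie at -1.86 or lower and the skipping probes at -0.44 to 0.04.

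Whether skipping probes differed among strains was tested directly with the limma F test over the 63 with a value on all 20 arrays. None passed, and 51 of all 7857 probes so tested (0.649%) did. At an unadjusted p under 0.05 there were 7 of the 63 (11.1%) and 14.6% of all probes. The smallest adjusted values were those of gga21 1-3 (limma adjusted p = 0.20), srp1 1-3 (0.20), rdh54 8-12 (0.21) and pud1 3-5 (0.29). For gga21 1-3 the lowest values were -0.56 on pwi1 replicate 1 and -0.45 on ssu72 replicate 2, and the highest was 0.73 on SPCC162.01c. Calls in one strain and not in another are thus not shown to differ between them.

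Among groups of genes, the splicing factors had the most skipping probes with a value, 19 in 10 genes. By limma 1 was higher and 2 were lower of the 8 tested on the arrays labelled smd3 (10.8% and 8.37% of all probes). On the arrays labelled ctr1 it was 1 higher and 1 lower of 15 (1.97% and 1.5%), and in Δppn1 1 lower of 13 (1.5%). In the other 9 strains none of 135 probe and strain combinations was called, with 24 (17.8%) at an unadjusted p under 0.05. The named members are cwf10 1-3, srp1 1-3, rsd1 3-5 and srp2 5-7. The median of these probes ran from -0.32 (SPAC18G6.13) to 0.37 (SPCC162.01c), beside -0.37 and 0.09 for all skipping probes tested in those strains. Among ribosomal protein genes only rps13 has skipping probes, and among genes of meiosis and sporulation 7 probes in 5 genes had a value. A single probe belonged to a gene of nonsense-mediated decay and RNA silencing, and in these 3 groups limma called none of 103 probe and strain combinations, with 16 (15.5%) at an unadjusted p under 0.05, against 19.4% of all probe and strain combinations.

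The rps13 gene shows how probes of 1 gene can go different ways on 1 array. On ssu72 replicate 2 the probes rps13 1-4 and 2-4 read 1.80 and 1.70, while rps13 1-3 read -0.998 on the same array. On ssu72 replicate 1 the same 3 probes read -0.03, 0.01 and 0.02. On SPCC162.01c all 3 were high, at 0.95 (1-4), 1.02 (2-4) and 0.77 (1-3), as were the consecutive junctions in their spans at 0.88 to 1.01. On ssu72 replicate 2 the span junctions read -0.59 to 0.04.

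Genes with many skipping probes also held both directions. The histone deacetylase gene clr6 has 8 and the SR protein gene srp2 has 7, while 206 genes have 1. In srp2 the probe 5-9 was above 0 on 19 of 20 arrays (-0.29 to 0.99) and its span junctions on 19 (-0.48 to 1.13), so its sign mostly went with the gene. Relative to its span, its strain means ran from -0.30 on the array labelled SPCC162.01c to 0.44 on those labelled ctr1. In contrast srp2 2-7 was below 0 on 12 of its 19 arrays (-1.35 to 0.56), and its span junctions on 4. In clr6 the probe 2-7 read -0.25 to 0.61 and the probe 1-8 read -1.12 to 0.94, with span junctions at -0.31 to 0.39 for 1-8. Skips that share an end could have opposite signs on 1 array, as on ctr1 replicate 1, where srp2 5-7 read -0.87 and srp2 5-9 read 0.87, and on smd3 replicate 1, where srp2 6-10 read -0.88 and srp2 7-10 read 0.57.

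Skipping values also went with the replicate number of the array, across strains, a pattern noticed after the values were seen. The median absolute difference over skipping probes was 0.18 (0.12 to 0.27) between replicate 2 arrays of different strains. It was 0.38 (0.17 to 0.71) between replicate 1 arrays of different strains and 0.37 (0.31 to 0.75) between the arrays of 1 strain. The replicate 2 arrays of different strains were thus more alike than the arrays of 1 strain. For the consecutive junctions the same 3 medians were 0.19, 0.25 and 0.24.

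Of the 75 skipping probes with a value on both arrays of all 8 strains, 12 (16%) were lower on replicate 2 than on replicate 1 in all 8 and 5 (6.67%) were higher in all 8. Over all 8550 probes the shares were 5.7% lower and 6.46% higher, and over consecutive junctions 4.05% and 6.58%. The largest difference was that of ptb1 2-4, from a prenyltransferase subunit gene, which read -2.50 to -1.38 on the replicate 2 arrays and -1.18 to 0.86 on the replicate 1 arrays (mean difference -2.13 ± 0.74, SD, n = 8). These arrays did not overlap, and the ptb1 span junctions read -0.43 to 0.20 on the replicate 2 arrays and -0.41 to 0.26 on the replicate 1 arrays. Among strains with 1 array, ptb1 2-4 read 0.25 to 1.01, within or above the range of the replicate 1 arrays.

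SPBC3E7.07c 3-6 (-1.49 ± 0.57), mms2 2-4 (-1.20 ± 0.49), sec8 2-4 (-1.18 ± 0.47) and srp2 2-7 (-1.03 ± 0.50) were the next largest (SD, n = 8 each). The span junctions moved the same way in part of these, being lower on replicate 2 in 8 of 8 strains for SPBC3E7.07c 3-6 (-1.83 to -0.64 on replicate 2, -0.99 to 0.39 on replicate 1), in 7 of 8 for mms2 2-4, in 5 of 8 for srp2 2-7 and in 3 of 8 for sec8 2-4. Mms2 acts in ubiquitin conjugation and sec8 in the exocyst. In srp2, the probe 2-7 read -1.35 to -0.85 on the replicate 2 arrays and -0.74 to 0.43 on the replicate 1 arrays, whereas srp2 6-10 was higher on replicate 2 in all 8 strains (0.69 ± 0.55). The highest mean difference was that of nht1 1-3 (0.77 ± 0.55), of a chromatin remodelling factor gene. What the replicate numbers share is not given in the labels.

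**Figure D5:**
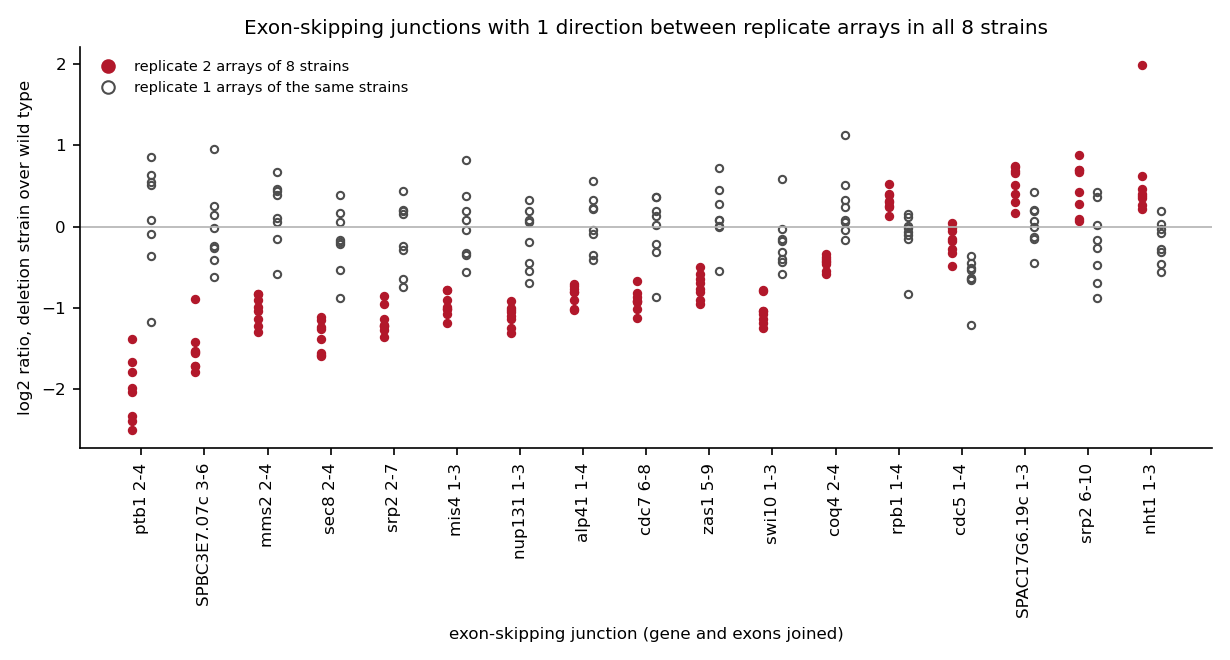
Strain over wild type, as log2 ratio, for the 17 skipping probes that went 1 way between the replicate 2 arrays (filled) and the replicate 1 arrays (open) of all 8 strains with 2 arrays. For ptb1 2-4 the replicate 2 arrays lie at -2.50 to -1.38 and the replicate 1 arrays at -1.18 to 0.86.

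The 3 mitochondrial probes that carry the lower-case name join consecutive exons. SPMIT.01 1-2 had a value on 4 arrays (-0.999 to 0.79), SPMIT.01 2-3 on 10 (-0.65 to 0.85) and SPMIT.05 1-2 on 17 (-0.45 to 0.83). On pwi1 replicate 1 these read -0.999, -0.65 and -0.32, which was the lowest value of each SPMIT.01 probe. They were left out of all counts of skipping probes.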

How the data were processed

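The values deposited by the authors are log2 ratios, 1 for each probe on each array (strain in Cy3 over wild type in Cy5), in 2 tables whose 304160 values were the same. How the authors corrected for background, normalized and centred the arrays, and when a value was left empty, the sources used here do not state. The median of a deposited column was -0.03 to 0.01 over the probes. Control spots (536) were left out, and no further scaling was applied. No value column was left unmapped to a sample. Gene names came from a RefSeq gene table, in which 262 of the 275 genes were matched. Probe sequences and a genome were not used here.

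With limma 3.58.1 (R 4.3.3), 1 mean per strain was fitted over all 20 arrays and tested against 0 (two-sided), with Benjamini-Hochberg adjustment over all probes with a value on every array of the strain, at 0.05. The same was done for the value relative to the consecutive junctions in the span, and the spread between arrays limits the precision. The procedure was tested on simulated data. Descriptions used Python 3.11.15. Named probes were, per strain and measure, the 5 largest increases and 5 largest decreases among called probes that kept their sign across the arrays of the strain, those smallest in the F test, and probes of deleted genes and of the gene lists. Other called probes, and the probes described with the replicate numbers, the largest medians and the genes with several probes, were chosen after their values were seen. The members and lists were chosen with earlier results of these data known.

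Alternatives were a replicate block, array centring on exon probes, trend and robust variance, other comparators, other adjustments, subtraction of the average of the other strains, probes on all arrays, and leaving arrays out. A withheld item is not reported here.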

Additional observations from a re-analysis of the deposited data

Results flagged for a closer look

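Called skipping probes that had the opposite sign on every array of another strain with 2 arrays are given here. The differences between those strains were not tested pair by pair. In the F test over all strains neither rdh54 8-12 (limma adjusted p = 0.21) nor pud1 3-5 (0.29) passed. The probe rdh54 8-12 had a mean of 0.47 on the arrays labelled smd3, against -0.56 in Δaar2, -0.46 on the arrays labelled ctr1, -0.07 in Δpwi1, -0.40 on the arrays labelled SPAC18G6.13, -0.41 in ΔSPAC20H4.06c and -0.09 in Δssu72. For pud1 3-5 the mean was -0.73 on the arrays labelled smd3 and 0.14 on those labelled ctr1. Relative to the consecutive junctions in the span, pwi1 1-4 had 2.19 in Δpwi1, where the deletion lowers those junctions, and -0.23 on the arrays labelled SPAC18G6.13, and rpb1 1-4 had -0.60 on the arrays labelled smd3 and 0.15 in Δpwi1.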

How the results depend on the processing

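Counts of called skipping probes depended on the setting. The replicate numbers do not pair the arrays by the labels. In the data, the differences between the arrays of a strain went together across strains. Correlations between strains were 0.08 to 0.77 over all probes. Over skipping probes they were -0.01 to 0.83 (median 0.60), and 27 of 28 were over 0.1. With the replicate number as a block, the level calls were 65 on the arrays labelled ctr1, 39 on those labelled smd3, 26 in Δaar2, 19 in SPAC18G6.13, 15 in Δppn1, 7 in Δssu72, 6 in SPAC20H4.06c, 4 in SPCC162.01c, 3 in Δpht1, 3 in Δpwi1 and 1 in Δswd1. Skipping probes called lower were 23.6% in ctr1 (all probes 7.9%), 28.7% in smd3 (13.1%), 7.19% in Δaar2 (5.27%) and 6.53% in SPAC18G6.13 (4.25%). They were 4.91% in Δppn1 (4.92%), 2.72% in SPAC20H4.06c (1.21%), 1.83% in Δssu72 (1.47%) and 0.8% in Δpwi1 (1.95%). In Δash2, Δpht1, Δswd1 and SPCC162.01c, with 1 array each, the share called lower was below that of all probes. The share called higher was below that of all probes in every strain but SPCC162.01c (0.763%, all probes 0.667%). Relative to consecutive junctions the block gave 58 in ctr1, 19 in smd3, 16 in Δaar2, 16 in Δppn1, 8 in Δpwi1, 6 in SPAC18G6.13 and 2 in Δpht1, where 0.025% to 13.9% of all probes and 0% to 7.02% of all junctions were called in 1 direction in a strain. Relative to their span, skipping probes called lower were 21.2% in ctr1 (all junctions 6.38%), 12.5% in smd3 (7.02%) and 5.58% in Δppn1 (2.72%). They were 4.44% in Δaar2 (2.54%), 2.56% in SPAC18G6.13 (0.809%) and 2.09% in Δpwi1 (1.31%). Those called higher were 2.9% in ctr1 (6.47%), 4.46% in smd3 (6.77%) and 1.86% in Δppn1 (2.91%). They were 1.02% in Δaar2 (2.88%), 0% in SPAC18G6.13 (0.578%) and 1.26% in Δpwi1 (1.37%). Of the splicing factor probes the block called lower 5 of 15 in ctr1 (all probes 7.9%), 3 of 8 in smd3 (13.1%), 2 of 17 in Δaar2 (5.27%) and 2 of 13 in Δppn1 (4.92%). It called 1 higher each in ctr1 (all probes 7.9%), smd3 (13.9%) and, of 13, in SPAC20H4.06c (1.98%). Of the meiosis and sporulation probes it called 1 of 5 higher each in ctr1 (7.9%), Δppn1 (5.05%), SPAC18G6.13 (5.42%) and Δssu72 (1.56%). In smd3 it called 1 of 3 of them higher (13.9%). It also called 1 of 5 of them lower in Δppn1 (4.92%), and 1 ribosomal protein probe lower of 3 in smd3 (13.1%). These lists hold few probes, and their shares were not tested against those of all probes. Without the 6 arrays on which the deleted gene was not strongly lowered, the level calls were 127 in ctr1 (replicate 1 alone), 12 in Δaar2, 10 in Δppn1, 10 in SPAC20H4.06c, 3 in Δssu72 and 1 in Δswd1, and the relative calls 112 in ctr1 and 0 in Δpht1. Without pwi1 replicate 1 and smd3 replicate 1, an alternative chosen after seeing the data, the level calls were 4 in Δppn1, 3 in SPAC18G6.13, and 1 each in Δaar2, SPAC20H4.06c and Δssu72. The shares of all probes called without these arrays are not given, so these counts show no trait of skipping probes. On ctr1 replicate 1 every kind of probe was spread most widely. The SD was 0.999 for skipping probes, 0.63 for consecutive junctions, 0.63 for exon probes and 1.015 for intron probes. The counts in ctr1 without the 6 arrays thus cannot be told apart from a spread of the whole array. The named level calls in smd3 and the relative calls in Δpht1, Δpwi1 and smd3 were lost.

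Trend and robust estimation gave 0 level calls in ctr1 and Δppn1, and relative calls of 0 in Δpht1 and 1 in Δpwi1. After subtraction of the average of the other strains, the level calls were 4 in smd3 and 0 in ctr1, Δpht1 and Δppn1, the relative calls 1 in smd3 and 0 in Δpht1 and Δpwi1, and qcr8 1-3 in smd3 reversed to 0.022 (adjusted p = 0.97). Over probes with a value on all 20 arrays, level calls were fewer in smd3 and 0 in ctr1 and Δpht1, and relative calls were made in Δaar2. There the median difference was -0.12 in SPAC18G6.13 and -0.10 in SPAC20H4.06c. Adjustment over junctions alone left 3 in ctr1, and centring on exon probes gave 2 in Δppn1. Relative to the exon probe, skipping probes were called in smd3, Δaar2, ctr1, Δppn1 and SPAC18G6.13. Relative to all junctions of the gene there was 1 call in SPAC18G6.13. The shares of all probes called under the alternatives of this paragraph are not given. These calls thus show how the outcome moved with the setting, and no trait of skipping probes.

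Leaving out 1 array of the strain gave level calls of 0 to 117 in ctr1, 0 to 0 in Δppn1, 7 to 9 in smd3, 0 to 2 in SPAC18G6.13 and 0 to 2 in Δssu72. The relative calls were 0 to 107 in ctr1, 0 to 6 in Δppn1, 0 to 1 in Δpwi1, 0 to 2 in smd3 and 0 to 2 in Δssu72, and the median difference of Δppn1 was -0.33 to 0.15. The F test among strains called none of 63 probes with the block either. Over 374 combinations of a named call and an alternative, 206 kept their direction and their call, 167 kept the direction and lost the call, and 1 reversed. The mean cannot change under trend and robust variance, other adjustments or a limit to probes on all arrays, nor under the block in strains with 2 arrays. Named calls also had 1 sign on every array, so leaving 1 out could not reverse them. Direction was thus fixed in advance for many combinations, and only the lost calls are informative there. The cause of these changes was not tested. Signal over background was not used here, so dim and bright probes could not be told apart.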
